A study of Homo sapiens with 12 samples.

Results

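Transcripts of 8 genes of cellular iron handling were compared between human cells without mitochondrial DNA (mtDNA), called rho0 cells, and their parental rho+ cells, in A549 and in 143BTK- cells. The genes were TFRC for iron uptake, FTL and FTH1 for iron storage, ACO1 and IREB2 for iron sensing, and NFS1, ISCU and GLRX5 for the assembly of iron-sulphur clusters. They were listed for their known function, with earlier results of these data known. Every probe set (a group of short probes read as a single value) was taken whose gene, in the annotation of the array platform, is a member or an older name of it. Of the 22283 probe sets on the array, 8 belonged to these genes, and they covered 6 of the 8 members. TFRC and FTL had 2 probe sets each, and ACO1, ISCU, NFS1 and GLRX5 had 1 each. FTH1 and IREB2 were not analysed here.

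The arrays formed 4 groups of 3, each array from its own RNA extraction: A549 rho0, A549 rho+, 143BTK- rho0 and 143BTK- rho+. A549 is a line from a lung adenocarcinoma, and 143BTK- is an osteosarcoma line that lacks thymidine kinase. The rho0 cells had been kept for 3 weeks in 50 ng/ml ethidium bromide, an intercalating dye that blocks replication of mtDNA, and were pooled without picking clones, while the rho+ cells are the untreated parental cells. All 4 groups shared a high-glucose medium with 10% serum, 1 mM pyruvate and 50 µg/ml uridine, on which cells without a respiratory chain can grow. The loss of mtDNA was checked in the study by PCR or Southern blot and was not checked here on the arrays. The loss of mtDNA and the earlier exposure to ethidium bromide cannot be told apart in this design.

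Cells take up iron bound to transferrin through the transferrin receptor (TFRC) and store what they do not use inside ferritin, a shell of heavy (FTH1) and light (FTL) chains. Mitochondria are the main site where iron is built into haem and into iron-sulphur clusters: the desulphurase NFS1 delivers the sulphur, ISCU is the scaffold on which the cluster forms, and GLRX5 helps to hand it on. When the cluster of ACO1 is missing, this cytosolic aconitase becomes the iron regulatory protein IRP1, which, like IREB2 (IRP2), binds a short RNA hairpin called the iron-responsive element, holding back translation of ferritin mRNA and shielding TFRC mRNA from decay.

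The loop of the FTL hairpin is shown with its flanks because the hairpin ties the storage gene to the sensing gene among the members. The bases shown lie in the first 50 bases after the start of the gene, at chr19:48965329-48965358 on the + strand of GRCh38.p14 (RefSeq). They end with base 50, so they need not hold the whole hairpin. The capitals mark the 6 bases of the loop.
FTL: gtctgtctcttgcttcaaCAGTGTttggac
The letters CNNNNNCAGTGN, read on the sense strand alone, were found in the first 50 bases of 586 of 35116 gene starts (1.67%). FTH1 had no entry in that table. Of the 7 members with a gene start there, with 8 starts in all, FTL had a match and the other 6 did not, and a match is a description of letters, not of binding. The search did not reach past these bases, so a gene without a match, TFRC among them, can hold such an element elsewhere. The arrays measured mRNA signal, so neither binding to this element nor translation was measured.

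Signals are on a linear scale in arbitrary units and were normalized within each line, so levels are compared between rho0 and rho+ arrays of a line and never between lines or between genes. Within a group, pairs of arrays correlated at r = 0.899 to 0.964 over the log2 signals of the probe sets kept for testing in that line. The A549 rho0 array C stood closest to the rho+ arrays of its line, with a mean r of 0.905 to them, against 0.876 and 0.872 for arrays A and B. The ratio of the 3′ to the 5′ probe sets of ACTB, a control for RNA integrity, was 8.81 on the A549 rho+ array C and lay between 0.861 and 2.83 on the other arrays. A probe set was kept for testing when its mean log2 signal was among the highest 59% of all probe sets in A549 or the highest 63% in 143BTK-. Of 6 epithelial markers, 5 were kept in A549 (EPCAM was not) and 4 in 143BTK- (CDH1 and KRT19 were not). Of 7 mesenchymal and bone markers, 5 were kept in each line, without SPARC and RUNX2 in A549 and without COL1A2 and RUNX2 in 143BTK-.

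All 8 probe sets of the iron genes were kept in both lines. No member changed by the threshold of an adjusted p of 0.05 in limma, a linear model with a variance shared across probe sets. This held for rho0 against rho+ cells in A549, where 10.8% of all probe sets passed, for 143BTK-, where 0.00% passed, for the mean change of both lines, where 3.67% passed, and for the difference between the changes of the lines, where 1.91% passed. At an unadjusted p of 0.05, TFRC and ACO1 were lower in rho0 cells of A549 (2 of 6 members, against 13.3% of all probe sets lower at that level). No member passed in 143BTK- at that level (8.38% of all probe sets), and TFRC, ACO1 and GLRX5 were lower in the mean change (3 of 6, against 10.0%). In the difference between the lines, 0 of 6 members passed at that level (17.3%). The median log2 change over the 6 members was -0.26 in A549 and -0.23 in 143BTK-, where the median over all probe sets was -0.0035 in A549 and -0.0022 in 143BTK-. In RNA from whole cultures, less RNA per cell and fewer cells expressing a gene cannot be told apart.

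**Figure D1:**
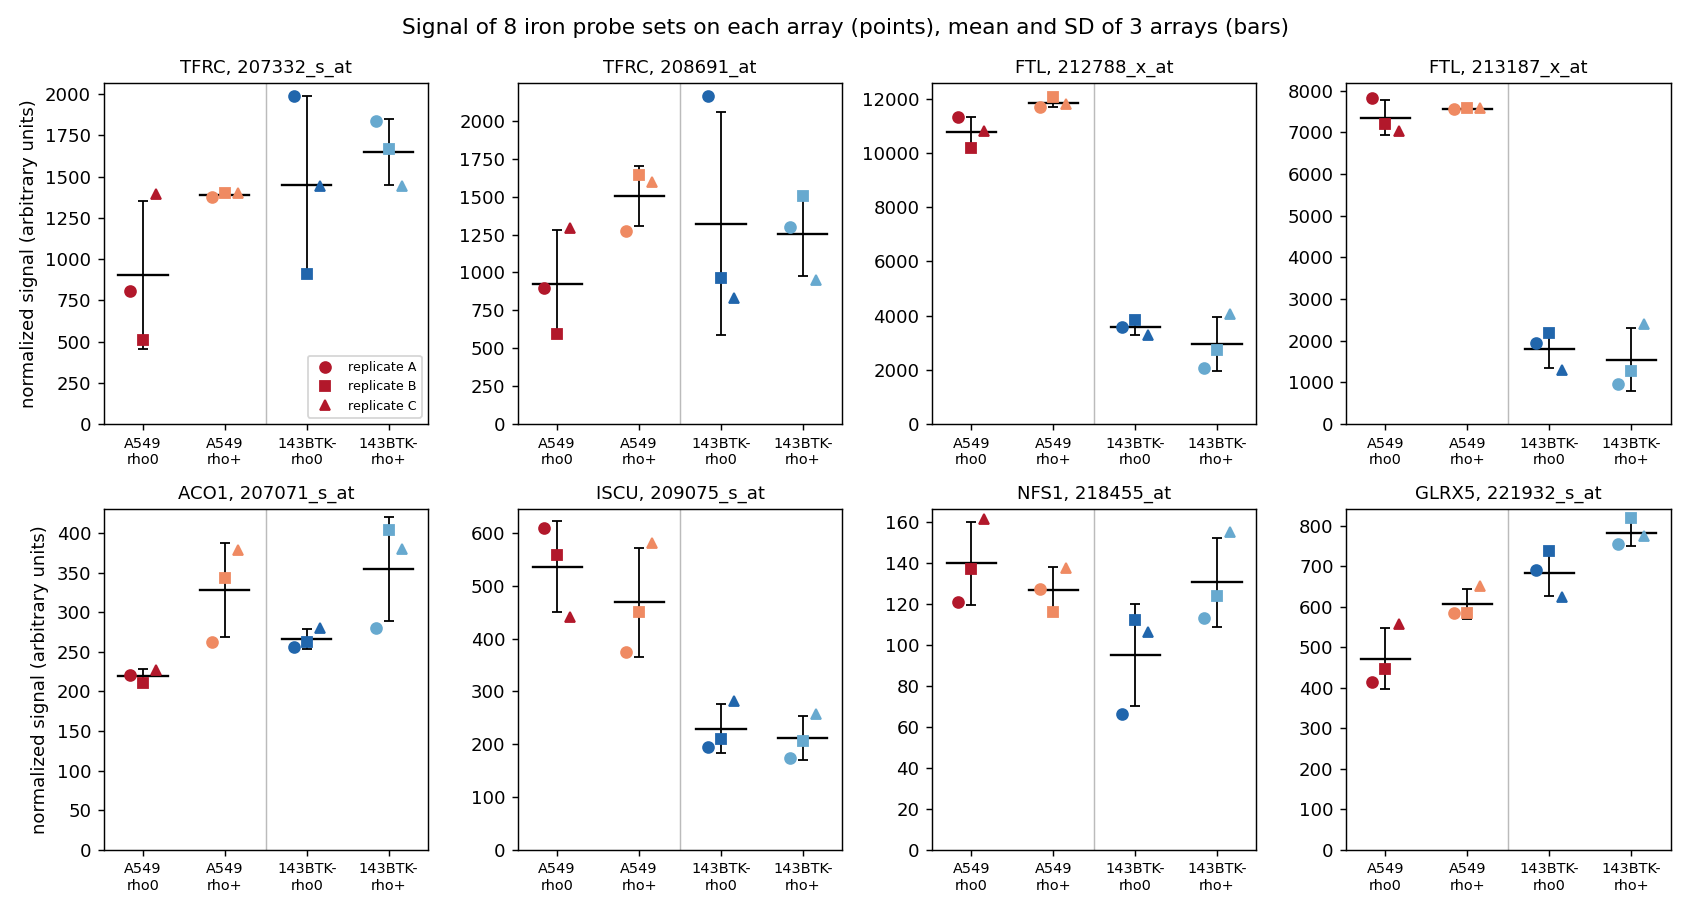
Normalized signal (arbitrary units, linear axes from 0) of the 8 iron probe sets on each of 12 arrays, with rho0 left of rho+ in each line. Points are arrays (replicates A, B and C), and the bars are the mean ± SD of 3 arrays. ACO1 and GLRX5 were the members whose 3 rho0 arrays lay below all 3 rho+ arrays in both lines, and TFRC spread widely among the rho0 arrays.

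TFRC, the receptor that brings transferrin-bound iron into the cell, had lower signals on 2 of the 3 rho0 arrays of A549. Its brighter probe set, 207332_s_at, read 808.9, 511.8 and 1393.7 on the A549 rho0 arrays A, B and C, against 1375.4, 1399.3 and 1399.3 on the rho+ arrays. The third rho0 array thus lay within the range of the rho+ arrays, and the groups overlapped. Equal values on different arrays arise where quantile normalization gave a probe set the same rank. The means were 905 ± 449 in rho0 and 1391 ± 13.8 in rho+ cells (SD, n = 3 each), and the fitted rho0 signal was 0.598-fold that of rho+ cells (95% interval 0.380 to 0.942, log2 change -0.74 ± 0.29 SE, adjusted p = 0.137). Without the A549 rho0 array C, which also stood closest to the rho+ arrays over the probe sets kept in A549, the log2 change was -1.11 and passed the test (adjusted p = 0.0154). Without rho0 array B, the lowest of the 3, it was -0.39 (adjusted p = 0.360), and these are the bounds of the 6 fits that left out an array. No other array or setting gave a member a call.

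The other TFRC probe set, 208691_at, read 895.1, 592.5 and 1291.4 on the A549 rho0 arrays, against 1274.9, 1640.3 and 1593.5 on the rho+ arrays. Its log2 change in A549 was -0.76 ± 0.25 (adjusted p = 0.0841). Both probe sets of the receptor thus gave nearly the same change in A549, with the lowest value on rho0 array B in each.

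In 143BTK-, TFRC (207332_s_at) read 1988.5, 910.9 and 1443.6 on the rho0 arrays, against 1839.7, 1668.0 and 1443.6 on the rho+ arrays. The rho0 arrays held both the highest and the lowest of these 6 values. The log2 change was -0.25 ± 0.27 (adjusted p = 0.828), with a 95% interval from 0.552-fold to 1.27-fold. The second probe set read 2167.2, 964.8 and 831.2 in rho0 cells, against 1299.9, 1506.1 and 953.4 in rho+ cells, a log2 change of -0.03 ± 0.35 (adjusted p = 0.991). In both lines the spread of TFRC was wider in rho0 than in rho+ cells: the coefficient of variation of 207332_s_at was 49.6% in A549 rho0 and 0.992% in A549 rho+ arrays, and 37.2% in 143BTK- rho0 and 12.0% in 143BTK- rho+ arrays. This difference in spread was not tested.

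Over both lines, the mean log2 change of TFRC was -0.50 ± 0.22 (adjusted p = 0.218, limma on 12 arrays). The change in A549 minus the change in 143BTK- was -0.49 ± 0.44 (adjusted p = 0.614), and its 95% interval, from -1.43 to 0.45, covers a difference in either direction.

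FTL, the ferritin light chain, had log2 differences of opposite sign in the 2 lines, neither of which passed the test. The probe set 212788_x_at read 11322.7, 10179.3 and 10792.2 on the A549 rho0 arrays, against 11707.8, 12053.2 and 11796.3 on the rho+ arrays. All 3 rho0 arrays lay below all 3 rho+ arrays. The distance was small: the means were 10765 ± 572 and 11852 ± 179 (SD, n = 3 each), the rho0 signal was 0.907-fold that of rho+ cells (95% interval 0.780 to 1.06), and the log2 change was -0.14 ± 0.10 (adjusted p = 0.397).

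In 143BTK-, FTL (212788_x_at) read 3588.5, 3836.1 and 3281.0 on the rho0 arrays, against 2067.7, 2735.2 and 4050.2 on the rho+ arrays. The rho0 values lay close together, inside the range of the rho+ values. The log2 change was 0.33 ± 0.22 (adjusted p = 0.739, 95% interval 0.883-fold to 1.78-fold). The change in A549 minus that in 143BTK- was -0.47 ± 0.25 (adjusted p = 0.374), so a difference between the lines was not shown.

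The second FTL probe set, 213187_x_at, gave changes of the same sign: 7825.1, 7197.7 and 7039.1 on the A549 rho0 arrays, against 7554.1, 7585.3 and 7585.3 on the rho+ arrays, a log2 change of -0.04 ± 0.11 (adjusted p = 0.828). Here the A549 groups overlapped. It read 1947.6, 2189.1 and 1299.9 in 143BTK- rho0 cells, against 960.7, 1269.5 and 2410.4 in 143BTK- rho+ cells, a log2 change of 0.30 ± 0.33 (adjusted p = 0.836). After each array was centred on the mean of its line, the 2 FTL probe sets correlated at r = 0.922 over the 12 arrays and the 2 TFRC probe sets at r = 0.848, which describes probe sets that share their RNA samples. The ending _x_at marks probe sets some of whose probes also match other sequences, so the share of the signal that comes from FTL itself is not known.

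ACO1, the cytosolic aconitase that turns into IRP1 when it loses its cluster, was the member with the smallest p over both lines. Its probe set 207071_s_at read 220.9, 210.1 and 227.0 on the A549 rho0 arrays, against 262.3, 342.8 and 378.3 on the rho+ arrays. In 143BTK- it read 256.0, 262.3 and 280.4 on the rho0 arrays, against 280.5, 403.3 and 379.4 on the rho+ arrays. Every rho0 array lay below every rho+ array of its line, although in 143BTK- the closest pair read 280.4 on rho0 array C and 280.5 on rho+ array A.

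The ACO1 means were 219 ± 8.56 in A549 rho0 and 328 ± 59.4 in A549 rho+ cells, and 266 ± 12.7 in 143BTK- rho0 and 354 ± 65.1 in 143BTK- rho+ cells (SD, n = 3 each). The log2 change was -0.56 ± 0.20 in A549 (0.677-fold, 95% interval 0.497 to 0.920, adjusted p = 0.100) and -0.40 ± 0.22 in 143BTK- (0.760-fold, 95% interval 0.534 to 1.08, adjusted p = 0.685). The mean change was -0.48 ± 0.15 (0.717-fold, 95% interval 0.577 to 0.891, adjusted p = 0.0846), and 6.20% of all probe sets had a smaller p. The changes of the lines differed by -0.17 ± 0.29 (adjusted p = 0.818). Over 20 alternative settings and left-out arrays, the adjusted p of the mean change ranged from 0.0551 to 0.400, and none brought it past the threshold. Centring the arrays on the median of each chromosome brought the log2 changes of ACO1 nearer to 0, at -0.25 in A549 (adjusted p = 0.455), -0.23 in 143BTK- (adjusted p = 0.864) and -0.24 in the mean change. In each line the rho0 arrays of ACO1 also lay closer together than the rho+ arrays, with coefficients of variation of 3.90% and 4.76% in A549 and 143BTK- rho0 cells, against 18.1% and 18.4% in A549 and 143BTK- rho+ cells.

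NFS1, the cysteine desulphurase that supplies sulphur for new clusters, read lower in rho0 cells of 143BTK- without overlap. There the probe set 218455_at read 66.2, 112.2 and 106.4 on the rho0 arrays, against 112.9, 123.6 and 154.8 on the rho+ arrays. All 3 rho0 arrays lay below the rho+ arrays, with array A far below arrays B and C. The log2 change was -0.48 ± 0.29 (0.715-fold, 95% interval 0.454 to 1.13, adjusted p = 0.704).

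In A549, NFS1 read 120.9, 136.8 and 161.3 on the rho0 arrays, against 127.3, 115.7 and 137.5 on the rho+ arrays, and the groups overlapped (log2 change 0.13 ± 0.21, adjusted p = 0.734). The change in A549 minus that in 143BTK- was 0.62 ± 0.36, the widest gap between the lines among the members, and did not pass the test (adjusted p = 0.403, 95% interval -0.15 to 1.38). The mean change was -0.18 ± 0.18 (adjusted p = 0.626).

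ISCU, the scaffold for cluster assembly, had overlapping groups in both lines. Its probe set 209075_s_at read 609.1, 558.2 and 441.4 on the A549 rho0 arrays, against 375.2, 449.4 and 580.4 on the rho+ arrays. It read 194.6, 210.4 and 281.5 on the 143BTK- rho0 arrays, against 173.9, 205.2 and 256.2 on the rho+ arrays. The log2 changes were 0.21 ± 0.21 in A549 (adjusted p = 0.574) and 0.11 ± 0.26 in 143BTK- (adjusted p = 0.933), with a mean of 0.16 ± 0.17 (1.12-fold, 95% interval 0.872 to 1.43, adjusted p = 0.643). The interval of the mean change thus leaves room for a rise or a fall of the scaffold transcript.

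GLRX5, the mitochondrial glutaredoxin that passes clusters on from the scaffold, read lower in rho0 cells of both lines without overlap. The probe set 221932_s_at read 413.0, 446.6 and 557.1 on the A549 rho0 arrays, against 585.8, 583.9 and 650.2 on the rho+ arrays. It read 690.3, 737.3 and 624.7 on the 143BTK- rho0 arrays, against 755.8, 819.7 and 774.2 on the rho+ arrays. The distances were modest, with rho0 means of 472 ± 75.4 in A549 and 684 ± 56.6 in 143BTK-, against rho+ means of 607 ± 37.7 in A549 and 783 ± 32.9 in 143BTK- (SD, n = 3 each).

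The log2 change of GLRX5 was -0.37 ± 0.18 in A549 (0.773-fold, adjusted p = 0.208) and -0.20 ± 0.17 in 143BTK- (0.872-fold, adjusted p = 0.797). The mean change was -0.28 ± 0.12 (0.821-fold, 95% interval 0.689 to 0.979, adjusted p = 0.191), and the lines differed by -0.17 ± 0.24 (adjusted p = 0.761). Centring the arrays on the median of each chromosome turned the sign in 143BTK- to 0.15 (adjusted p = 0.895) and gave a mean change of -0.15 (adjusted p = 0.538), so the direction in 143BTK- depended on this setting.

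**Figure D2:**
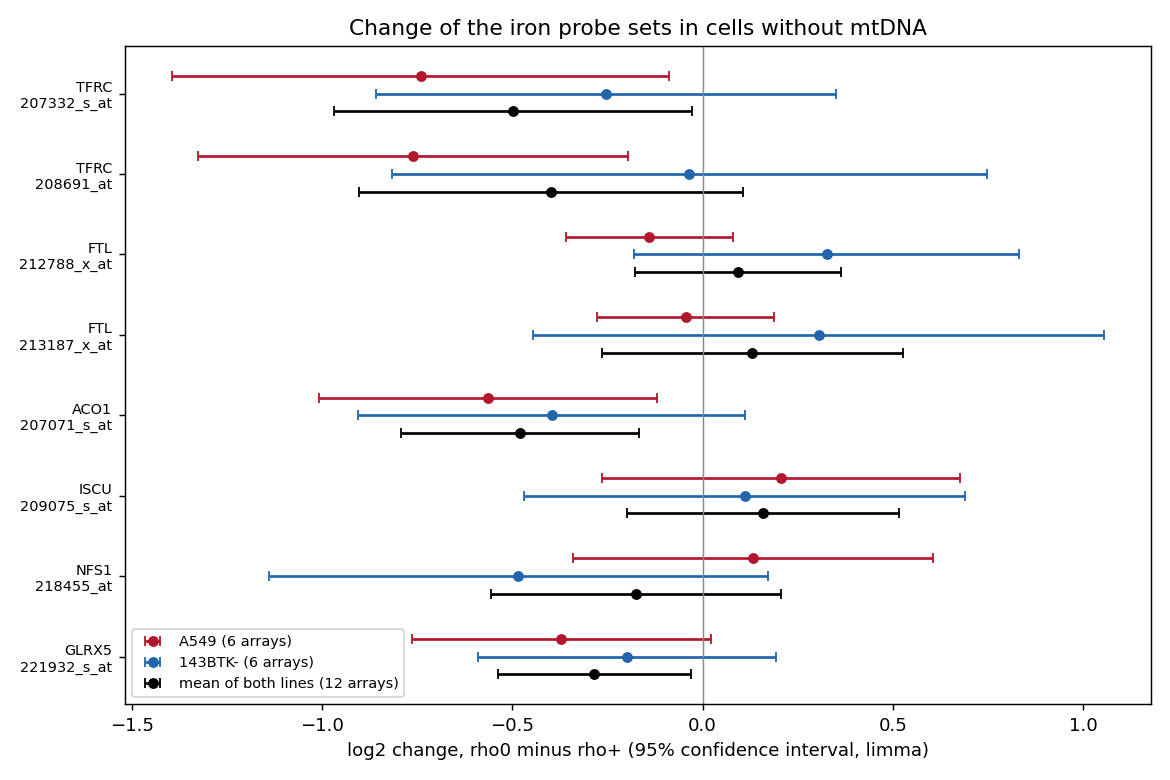
Log2 change (rho0 minus rho+) of the 8 iron probe sets in A549, in 143BTK- and as the mean of both lines, with 95% confidence intervals from limma. In the mean change the intervals of TFRC 207332_s_at (-0.97 to -0.03), ACO1 (-0.79 to -0.17) and GLRX5 (-0.54 to -0.03) lie below 0 before adjustment, and those of FTL, ISCU and NFS1 cover 0.

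The members thus divided by the separation of their arrays as follows. In A549 the rho0 arrays lay below all rho+ arrays for FTL (212788_x_at), ACO1 and GLRX5, 3 of 6 members, where 16.1% of all probe sets did. In 143BTK- they did so for ACO1, NFS1 and GLRX5, again 3 of 6, where 7.47% of all probe sets did. ACO1 and GLRX5 lay apart in both lines (2 of 6 members, against 1.26% of all probe sets kept in both). No member's rho0 arrays lay above all rho+ arrays in either line. Across the array, the called changes in A549 had a median size of 1.17 and a smallest size of 0.45 on the log2 scale, and the log2 changes of the members in that line ran from -0.74 for TFRC to 0.21 for ISCU.

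Across the 12 arrays, with each array centred on the mean of its line, ACO1 and GLRX5 varied most alike among the 15 pairs of members (r = 0.752), followed by TFRC and GLRX5 (r = 0.626). TFRC and ISCU varied most oppositely (r = -0.472), and TFRC and ACO1 had r = 0.471. FTL was the member least tied to the receptor and to the glutaredoxin, with r = -0.11 to TFRC and r = 0.02 to GLRX5. These coefficients describe arrays that also differ in mtDNA state, so that a shared difference between rho0 and rho+ cells enters each of them.

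Of 10811 probe sets compared, the 3 most like TFRC were those of CDC6 (r = 0.968), a loading factor for DNA replication, FANCI (r = 0.967), a protein of DNA crosslink repair, and H2AZ1 (r = 0.958), a histone variant. All 3 shared the low points of TFRC on rho0 array B of each line, and none of them passed the test: the log2 changes in A549 were -1.27 for CDC6 (adjusted p = 0.123), -1.21 for FANCI (adjusted p = 0.0803) and -0.74 for H2AZ1 (adjusted p = 0.121). For ISCU the most alike of 10812 probe sets were those of CDHR2 (r = 0.934), RAP2C (r = 0.927) and AP3S1 (r = 0.924), a cadherin-related protein, a small GTPase and a subunit of a vesicle coat adaptor. Their log2 changes in A549 lay between 0.25 and 0.44, with none past the threshold.

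**Figure D3:**
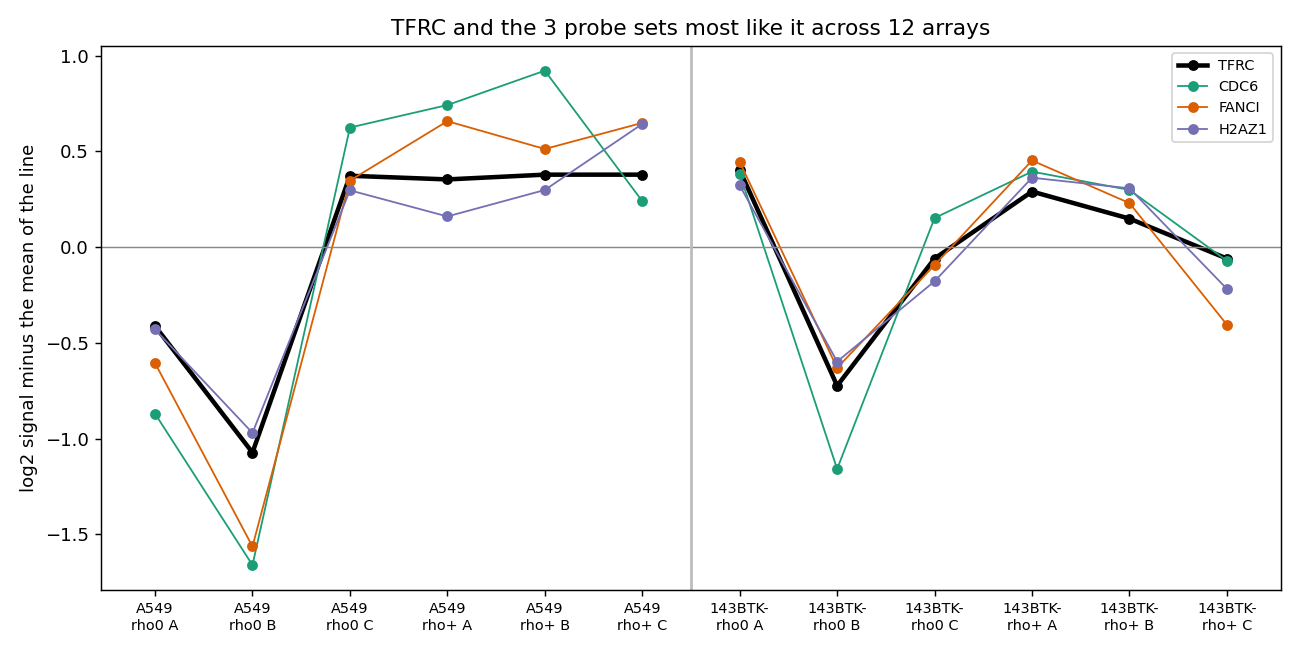
Log2 signal of TFRC (207332_s_at, black) and of the 3 probe sets most like it (CDC6, FANCI and H2AZ1) on each of the 12 arrays, minus the mean of the line. Lines join arrays of the same cell line and carry no order. All 4 genes have their lowest point on rho0 array B in both lines, and in A549 the rho0 array C lies within the range of the rho+ arrays for TFRC, CDC6 and H2AZ1 and below it for FANCI.

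Other genes of iron metabolism were read from 5 lists by role. In A549, 12 of 67 tested genes of these lists passed the adjusted test, 6 higher and 6 lower in rho0 cells, where 10.8% of all probe sets passed (5.59% higher and 5.17% lower). The genes were read by their brightest probe sets, while the shares count dim ones too. At a mean signal of at least 100, 10 of 39 list genes and 1183 of 5816 probe sets passed in A549. In 143BTK-, limma called 0 of 67 (0.00% of all probe sets), and 5 genes had an unadjusted p under 0.05, where 8.38% of all probe sets did. In the mean change 5 of 62 passed (3.67%), and in the difference between the lines 1 of 62 passed (1.91%). The calls in A549 depended on single arrays. Without rho0 array A only AOX1, LCN2 and PCBP2 passed, and without rho+ array B only ERCC2, LCN2, LYRM4 and PCBP2 did. Without rho0 array B, 7 of the 12 passed (CIAPIN1, HEBP1, HEBP2, HMOX1 and SLC39A14 did not). FECH and SLC39A14 were lost without rho0 array C, both of these with HEBP1 and HEBP2 without rho+ array A, and HEBP1 and SLC39A14 without rho+ array C. LCN2 and PCBP2 passed whichever array was left out, and SLC39A14 in none of these 6 fits. With centring on the chromosome's median, 8 of the 12 passed, and CIAPIN1 (log2 change -0.56, adjusted p = 0.124), SLC39A14 (-0.42, adjusted p = 0.202), HEBP1 (0.59, adjusted p = 0.0837) and HEBP2 (0.57, adjusted p = 0.0672) did not.

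Among genes of iron transport and its control, 1 of 16 rose and 3 fell in A549. PCBP2, an iron chaperone that delivers iron to ferritin, rose: 3681.5, 2907.1 and 3419.3 on the rho0 arrays, against 1748.7, 1791.5 and 1952.4 on the rho+ arrays (log2 change 0.86, adjusted p = 0.00517), while none of its 3 other probe sets passed, with log2 changes from -0.21 to 0.44. SLC39A8 and SLC39A14, carriers that can bring non-transferrin iron into cells, fell, with log2 changes of -1.30 (adjusted p = 0.0144) and -0.69 (adjusted p = 0.0470). Without rho0 array A or rho+ array B, SLC39A8 no longer passed, and its second probe set had a log2 change of -0.23 in A549 without a call. LCN2, a siderophore-binding secreted protein, fell to 5.2, 17.0 and 24.1 in rho0 cells, against 90.1, 110.2 and 150.2 in rho+ cells (adjusted p = 0.00533), and since the rho0 mean lay under the lowest mean signal kept in A549 (18.9) no fold is given. In the mean change of both lines, SLC39A8 fell (log2 change -0.89, adjusted p = 0.0347), PCBP2 rose (0.47, adjusted p = 0.0290) and HFE, which binds TFRC at the cell surface, rose. In 143BTK- alone, the groups overlapped for SLC39A8 (log2 change -0.47, adjusted p = 0.723) and for PCBP2 (0.08, adjusted p = 0.927). None of the 5 genes called in the mean change passed without A549 rho0 array A, A549 rho+ array B or 143BTK- rho+ array B, and PCBP2 passed in 6, SLC39A8 in 4 and LYRM4 in 3 of the 12 fits that left out an array. With the replicate block, the mean changes of SLC39A8 (adjusted p = 0.0577) and PCBP2 (adjusted p = 0.0607) no longer passed.

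HFE (206087_x_at) read 102.2, 80.7 and 100.4 on the A549 rho0 arrays, against 23.6, 58.3 and 61.0 on the rho+ arrays. It read 52.2, 26.8 and 56.5 on the 143BTK- rho0 arrays, against 17.4, 22.7 and 19.9 on the rho+ arrays. The rho0 arrays lay above the rho+ arrays in both lines. HFE passed in neither A549 (adjusted p = 0.0811) nor 143BTK- (adjusted p = 0.534) alone. The mean log2 change was 1.11 ± 0.27 (2.15-fold, adjusted p = 0.0406). Of the 8 other HFE probe sets kept in both lines 1 passed, with log2 changes from 0.19 to 0.98 among the 8. The call on 206087_x_at was kept in 2 of the 12 fits that left out an array (without 143BTK- rho0 array B and without A549 rho+ array C), and the adjusted p of these fits ran from 0.0257 to 0.109. It was also lost with the replicate block (adjusted p = 0.0657), without the intensity trend (0.0542), without a filter (0.0734) and with centring on the chromosome's median (0.0665).

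For haem, 3 of 15 genes rose and 1 fell in A549. FECH, the mitochondrial enzyme that inserts iron into haem, read 330.2, 263.5 and 406.7 in rho0 cells, against 113.1, 123.0 and 218.2 in rho+ cells (log2 change 1.18, adjusted p = 0.0259). Its second probe set had a log2 change of 1.14 in A549, with overlapping groups and without a call (adjusted p = 0.114). The haem-binding proteins HEBP1 (0.69, adjusted p = 0.0452) and HEBP2 (0.73, adjusted p = 0.0282) rose as well. HMOX1, the inducible haem oxygenase that releases iron from haem, fell to 585.5, 596.7 and 772.9 in rho0 cells, against 2997.7, 2113.7 and 1019.1 in rho+ cells (log2 change -1.53, adjusted p = 0.0176). FECH passed in 2 and HMOX1 in 3 of 6 fits that left out an array: FECH was lost without rho0 array A or C or rho+ array A or B, and HMOX1 without rho0 array A or B or rho+ array B. The rho+ array nearest to the rho0 values in both was C, the array with the high ACTB ratio (8.81). Without that array the log2 change was -1.96 for HMOX1 (adjusted p = 0.000346) and 1.48 for FECH (adjusted p = 0.00303), both farther from 0 than with it.

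Of the other genes of mitochondrial cluster assembly, 1 of 9 rose in A549 and 0 fell. This was LYRM4 (ISD11), the small partner that holds NFS1 in its active complex, which read 266.8, 241.5 and 208.3 in rho0 cells, against 90.3, 112.2 and 118.0 in rho+ cells (log2 change 1.16, adjusted p = 0.00890, not passed without rho0 array A). Over both lines it also passed (0.71, adjusted p = 0.0420), with 137.1, 194.4 and 163.2 on the 143BTK- rho0 arrays, against 117.0, 114.4 and 191.0 on the rho+ arrays, which overlap. That call was lost with the replicate block (adjusted p = 0.0676), without the intensity trend, without a filter and with centring on the chromosome's median. NFS1 itself, its partner among the members, had a log2 change of 0.13 in A549 and was not called.

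In cytosolic cluster assembly 1 of 7 genes fell in A549, CIAPIN1, an electron carrier of that pathway (224 ± 17.7 in rho0 cells and 419 ± 91.2 in rho+ cells, SD, n = 3 each, log2 change -0.88, adjusted p = 0.0236), and its second probe set also fell there (-1.06). Among proteins that carry an iron-sulphur cluster, 1 of 20 rose and 1 fell in A549. ERCC2, a helicase of DNA repair, rose to 69.6, 54.4 and 45.0 in A549 rho0 cells, against 17.5, 11.0 and 8.6 in A549 rho+ cells (adjusted p = 0.00834), where the rho+ mean lay under the lowest mean signal kept. Over both lines ERCC2 also passed (adjusted p = 0.0373), a call kept in 6 of the 12 fits that left out an array. In 143BTK- alone it read 36.9, 107.8 and 33.6 on the rho0 arrays, against 40.6, 40.0 and 45.7 on the rho+ arrays, which overlap (adjusted p = 0.891). AOX1, aldehyde oxidase, fell to 15.2, 26.9 and 27.3 in A549 rho0 cells, against 85.6, 102.7 and 58.5 in A549 rho+ cells (log2 change -1.84, adjusted p = 0.0102). Its second probe set was not called there (adjusted p = 0.120). The Rieske iron-sulphur protein of the respiratory chain was not among the tested genes of this list, so the counts leave it out. The study reported the Rieske transcript as lower in rho0 cells of both lines.

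**Figure D4:**
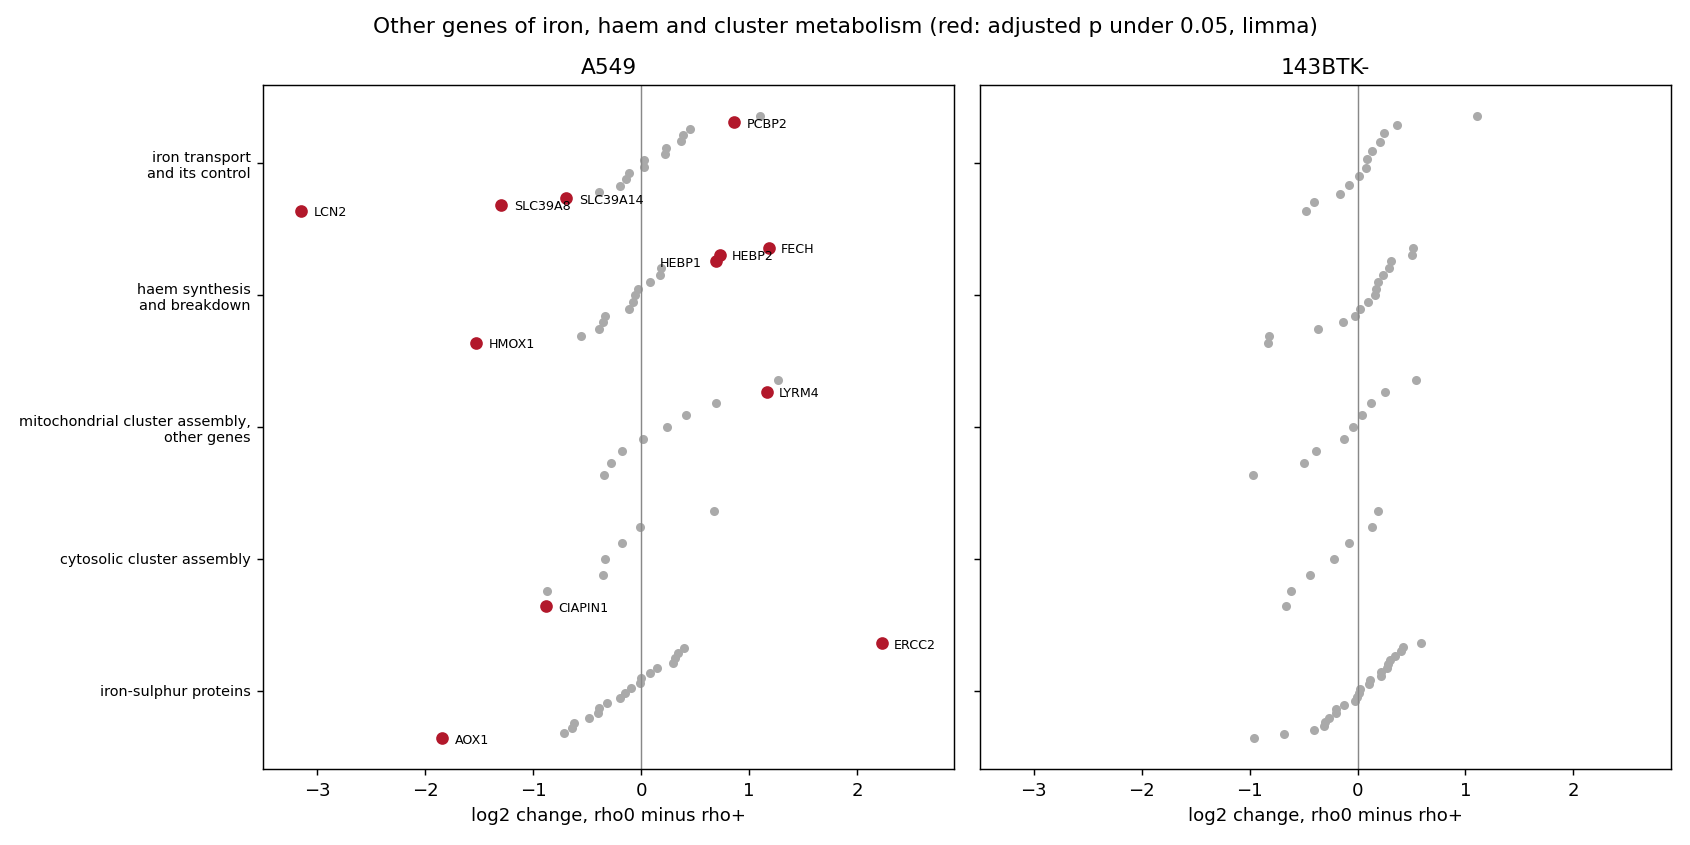
Log2 change (rho0 minus rho+) of every tested gene of the 5 other lists in A549 (67 genes) and in 143BTK- (67 genes). Red points passed an adjusted p of 0.05 in limma and carry their names, and grey points did not. All 12 red points are in A549, and the points of LCN2 and ERCC2 have 1 group under the lowest mean signal kept, so their distance from 0 is not a measured fold.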

How the data were processed

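Total RNA of 12 cultures was measured on HG-U133A arrays, 3 per line and mtDNA state. The deposited intensity values are linear MAS5 signals: the authors computed them with Microarray Suite and then applied quantile normalization separately to each line (6 arrays). No background correction or normalization was added. All columns were used, and groups came from the sample labels. Gene names came from the platform annotation, which listed a single gene for 19071 of 22283 probe sets, several for 1043 and none for 2169. Of the single ones, 19059 were updated through RefSeq (GRCh38.p14).

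Log2 signals, with no offset, entered limma 3.58.1 under R 4.3.3 (lmFit, eBayes with an intensity trend, two-sided, Benjamini-Hochberg over all kept probe sets, threshold 0.05). In place of detection calls, which were not used here, the highest 59% (A549, 13147) and 63% (143BTK-, 14038) of probe sets by mean log2 signal were kept, 12184 in both. Each line was fitted alone, with 4 residual degrees of freedom. The mean change and the difference (A549 minus 143BTK-) came from a fit of all 12 arrays with 8. Fold values are ratios of geometric means, and errors beside log2 changes are SE. The number of arrays limits the precision. The study's own error model was fitted on other arrays and was not used. The fit was tested on simulated data.

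A gene is represented by the brightest of its kept probe sets over 12 arrays. The shares given beside counts of genes are over all kept probe sets, dim ones included. Named beside the members are every gene of the 5 other lists that passed in any fit, the gene with the smallest p of each list in the mean change, and the 3 probe sets most like TFRC and ISCU by Pearson's r. The members and the lists were chosen with earlier results of these data known. Alternatives were quantile normalization over 12 arrays, offsets of 16 and 64, all probe sets or those averaging 100 or more, eBayes without the trend, a replicate block, centring on each chromosome's median, the mean of a gene's probe sets, and leaving out each array. Figures were drawn with matplotlib 3.10.9.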

Additional observations from a re-analysis of the deposited data

Results flagged for a closer look

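The change of AOX1, aldehyde oxidase, differed between the lines by the test of the difference itself: the log2 change in A549 minus that in 143BTK- was -2.43 ± 0.51 (SE, adjusted p = 0.0284, limma). AOX1 read 15.2, 26.9 and 27.3 in A549 rho0 cells, against 85.6, 102.7 and 58.5 in A549 rho+ cells, and all 3 rho0 arrays were lower. It read 28.9, 30.1 and 46.3 in 143BTK- rho0 cells, against 17.7, 31.0 and 21.5 in 143BTK- rho+ cells, which overlap. The call was kept in 7 of the 12 fits that left out an array and was lost without A549 rho0 array A, A549 rho+ array A or B, 143BTK- rho0 array A or 143BTK- rho+ array A, with an adjusted p of up to 0.0877. It was also lost with the replicate letter as a block (adjusted p = 0.0530). The result rests on 1 probe set with low signals: its A549 rho0 mean was 23.1, where the lowest mean signal kept in A549 was 18.9. The second AOX1 probe set was not called in A549 (adjusted p = 0.120), where its rho0 mean lay under that lowest mean. It was not kept in 143BTK-, so its difference between the lines was not tested.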

How the results depend on the processing

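No member passed the adjusted test in A549, 143BTK-, the mean change or the difference under any alternative other than leaving out an array, and leaving out an array gave 0 to 1 calls in A549 (TFRC, without rho0 array C). Of 200 member changes under other settings, 199 kept their direction and their side of the threshold, and GLRX5 in 143BTK- reversed to 0.147 with centring on the chromosome's median. Of 216 with an array left out, 207 kept both and 8 reversed: TFRC in 143BTK- ranged from -0.52 to 0.045, ISCU in 143BTK- from -0.047 to 0.26, FTL in the mean change from -0.021 to 0.22 and ISCU in the difference between lines from -0.054 to 0.26. Among the other settings, the changed filters, eBayes without the trend and the replicate block cannot alter a log2 change in this design. There only the side of the threshold could move. In 143BTK- no setting called more than 1 of all probe sets, so a member could hardly change its side.

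Calls among the other list genes were less stable, and the cause was not tested. In A549 there were 12, with 6 left without an intensity trend, 8 with centring on the chromosome's median and 3 to 12 without an array. In the mean change there were 5, with 1 left under no filter, 2 without an intensity trend, 1 with the replicate block (ERCC2), 2 with centring on the chromosome's median and 0 to 6 without an array. In the difference there was 1, with 0 left at a mean signal of at least 100, where AOX1 was not tested, 0 with the replicate block and 0 to 2 without an array. Over all probe sets, dropping the intensity trend gave 766 calls in A549 (1415 with it), 232 in the mean change (447) and 128 in the difference (233). Centring on the chromosome's median gave 293 in the mean change, and leaving out an array gave 424 to 1917 in A549, as few as 110 in the mean change and 61 to 312 in the difference.

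The labels do not say whether arrays of the same replicate letter are paired. The deviations of same-lettered rho0 and rho+ arrays correlated at r = 0.104, 0.0521 and 0.0852 for letters A, B and C in A549 and at 0.357, -0.105 and -0.014 in 143BTK-. Arrays of different letters were not compared, so these values do not decide whether the letters pair the arrays. With the replicate block, limma called 1441 probe sets in A549, 1 in 143BTK-, 345 in the mean change and 187 in the difference, and 0 members in each.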
